A study of Mus musculus with 6 samples.

Results

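The collagen genes were taken as every protein-coding gene of the mouse annotation (GENCODE vM21, genome build mm10) whose symbol is Col, a number, the letter a and a number. This rule gave 44 of 21951 protein-coding genes, and it used no measured value. The data were FLAG ChIP-seq peak lists, that is, genome intervals at which chromatin bound by a FLAG-tagged transcription factor was enriched. All embryos were of the CD1 strain at embryonic day 11.5 per the sample labels, whereas the text on the series gives E10.5. They carried a FLAG-based tag either at *Gli3*, the zinc finger factor that turns Hedgehog signaling into activation or repression of its targets, or at *Hand2*, a basic helix-loop-helix factor of the distal jaw mesenchyme. The labels name both tags 3XFlagbio, whereas the methods of the study name the *Hand2* allele 3xFlag. Gli3 was profiled in the mandibular prominence (MNP) and in the whole face, and Hand2 in the MNP. These 3 groups had 2 replicates each, made from pooled embryonic tissue, and a mock ChIP came from wild-type tissue. Because tissue was pooled and not sorted, a peak cannot be assigned to a cell type, and the lists hold no expression values against which the dissected tissue could be checked. The deposited data are 1 merged list per group, with 5427 Gli3 MNP peaks, 5752 Gli3 whole face peaks and 59583 Hand2 MNP peaks. A list has no peak height, read count or depth, so every value below is a count of positions and has no replicate error. The lists were built from peaks shared by both replicates. All 31, 45 and 402 different peaks near collagen genes, in the same order, therefore carried the names of peaks from both, which is no separate support.

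Collagens are the triple-helical proteins of the extracellular matrix. Fibrillar collagens build the ropes of bone, cartilage, skin and tendon, network-forming collagens build sheets such as the basement membrane, and fibril-associated and transmembrane collagens link fibrils and cells to each other. In the developing jaw they are known as the matrix products of neural crest-derived mesenchyme as it turns into cartilage, bone, dermis and tendon.

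The genes were grouped by the role of their proteins into 11 fibrillar genes, 6 genes of the basement membrane network, 3 of short-chain networks, 6 of beaded filaments, 9 fibril-associated genes (FACIT), 4 of transmembrane collagens, 2 multiplexins, and 3 anchoring fibril and other genes. Collagen genes are long, with a median of 114.4 kb from 7.105 kb (*Col10a1*) to 468.4 kb (*Col25a1*), compared to a median of 17.35 kb for the 21907 other protein-coding genes. A peak was counted for a gene when its midpoint lay inside the gene or within 50 kb of it. The expectation for a gene was the mean count of the 500 other protein-coding genes closest to it in length. The windows of 15 genes overlap that of another collagen gene, which leaves 36 separate loci, and a peak in a shared window counts for each gene.

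Gli factors bind a motif that is well known, and it can be looked for in the Gli3 peaks. A pair of 8-letter spellings was searched on both strands of each whole peak, GACCACCC, the canonical core, and GACCTCCC, which differs from it by a single letter. The 8 stretches below come from the Gli3 peaks with a motif that lie closest to the start (TSS) of a collagen gene, with the motif in capitals and printed 5′ to 3′ on the strand that carries it.

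Col13a1, intron (mm10, chr10:61978132-61978199, minus strand): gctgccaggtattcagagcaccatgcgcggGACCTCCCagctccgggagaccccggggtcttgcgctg
Col8a2, upstream (mm10, chr4:126281644-126281711, minus strand): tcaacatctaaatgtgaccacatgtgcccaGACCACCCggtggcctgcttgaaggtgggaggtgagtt
Col11a2, upstream, at the TSS of H2-Ke6 (mm10, chr17:34028140-34028207, plus strand): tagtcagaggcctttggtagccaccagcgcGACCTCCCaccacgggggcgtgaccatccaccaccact
Col19a1, intron (mm10, chr1:24569734-24569801, plus strand): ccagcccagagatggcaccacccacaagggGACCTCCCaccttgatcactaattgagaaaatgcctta
Col5a3, intron (mm10, chr9:20790575-20790642, minus strand): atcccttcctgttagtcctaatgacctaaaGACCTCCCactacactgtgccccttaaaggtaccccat
Col18a1, upstream (mm10, chr10:77191205-77191272, plus strand): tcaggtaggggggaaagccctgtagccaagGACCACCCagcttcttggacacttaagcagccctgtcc
Col8a2, far upstream, at the TSS of Map7d1 (mm10, chr4:126256914-126256981, minus strand): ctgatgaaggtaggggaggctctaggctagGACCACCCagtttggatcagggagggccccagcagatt
Col25a1, upstream (mm10, chr3:130087408-130087475, plus strand): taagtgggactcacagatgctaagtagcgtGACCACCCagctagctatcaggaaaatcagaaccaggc

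The printed copy of the motif was followed by A in 7 of 8 stretches, the exception being the *Col8a2* upstream site. Over all copies in Gli3 peaks near collagen genes, A followed in 8 of 10 copies in the MNP and in 11 of 13 in the whole face, compared to 53.8% and 71.5% of the copies in the rest of each list. These copies are few, and no interval was computed for their shares. Sites in both lists, such as that of *Col5a3*, count in each, so the lists are not separate support. The base after the motif was not part of the planned search. In the MNP, 5 of 31 peaks near collagen genes (16.1%, 95% Wilson interval 7.09 to 32.6) held GACCACCC and 5 held GACCTCCC, compared to 13.3% and 6.54% of the rest of the list. In the whole face, 9 of 45 peaks (20.0%, interval 10.9 to 33.8) held GACCACCC and 4 (8.89%, interval 3.51 to 20.7) held GACCTCCC, compared to 19.8% and 6.15%. The interval included the share in the rest of the list for 3 of these values, and for GACCTCCC in the MNP its lower bound of 7.09% lay just above that share. Intervals here and in the rest of the text cover counting error only.

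Across the 44 genes, Hand2 peaks and whole face Gli3 peaks were more numerous than at other genes of like length, and MNP Gli3 peaks were close to the expected number. Hand2 gave 428 gene-peak pairs compared to 295.9 expected, a ratio of 1.45 (95% Poisson interval 1.31 to 1.59). The whole face Gli3 list gave 46 pairs compared to 28.8 expected (ratio 1.60, interval 1.17 to 2.13). The MNP Gli3 list gave 31 pairs compared to 30.2 expected (ratio 1.03, interval 0.698 to 1.46). Part of the Hand2 and whole face Gli3 excess lay at *Col23a1* and *Col25a1*. Without them the ratios were 1.27 for Hand2, 1.39 for whole face Gli3 (37 pairs compared to 26.58) and 0.969 for MNP Gli3. No intervals were computed for these ratios. The ratios of single genes had a median of 1.24 for Hand2, 1.51 for whole face Gli3 and 0 for MNP Gli3, where fewer than 1 peak was expected at each gene. Whole face Gli3 expectations were also below 1 at most genes. Both Gli3 medians thus reflect whether a gene had any peak and are not a typical excess. Per 100 kb of window, collagen genes had 4.38 Hand2 peaks compared to 2.76 at the other genes. For whole face Gli3 these densities were 0.471 and 0.327, and for MNP Gli3 0.318 and 0.470. They take in all other protein-coding genes and, unlike the ratios above, are not matched on gene length.

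**Figure D1:**
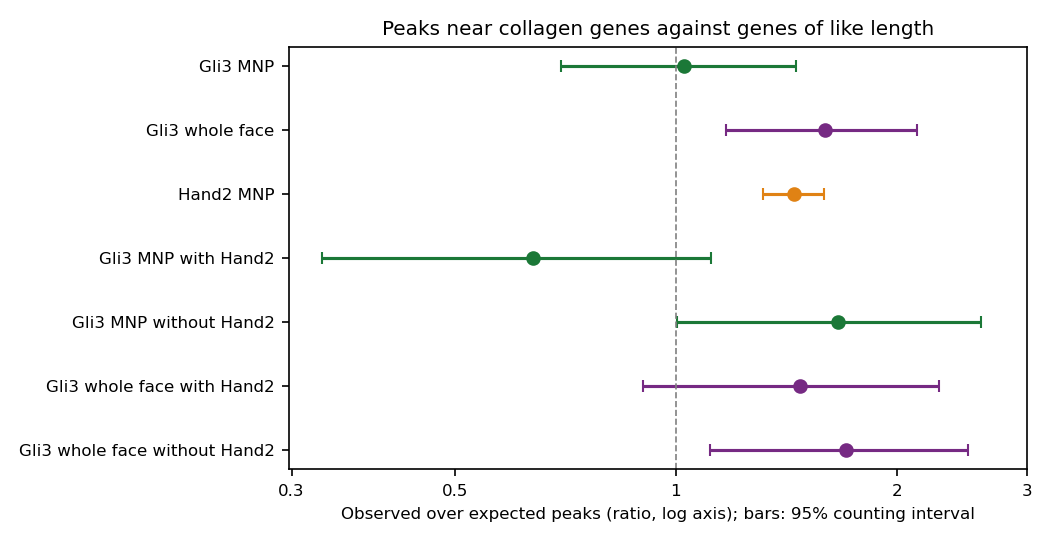
Observed over expected number of peaks within 50 kb of the 44 collagen genes for each list and for the Gli3 lists split by overlap with Hand2, on a log axis, with 95% Poisson intervals as bars and a dashed line at 1. The Hand2 and whole face Gli3 lists lie at 1.45 and 1.60, and the MNP Gli3 list at 1.03.

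Counting genes in place of peaks gave the same order of the lists, but Hand2 was then close to its expectation. At least 1 Hand2 peak lay in the window of 43 of 44 collagen genes (97.7%, Wilson interval 88.2 to 99.6). This compared to 40.95 expected at like length (93.1%, inside the interval) and to 82.6% of all other protein-coding genes. At least 1 whole face Gli3 peak lay in the window of 26 genes (59.1%, Wilson interval 44.4 to 72.3), compared to 18.45 expected and to 32.6% of the other genes. At least 1 MNP Gli3 peak lay in the window of 20 genes (45.5%, interval 31.7 to 59.9), compared to 20.75 expected and to 43.3% of the other genes. More peaks than the 95th percentile of the 500 genes of like length were found at 9 collagen genes for Hand2, at 4 for whole face Gli3 and at 4 for MNP Gli3, a criterion that 4.3%, 2.78% and 3.34% of the other protein-coding genes met.

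**Figure D2:**
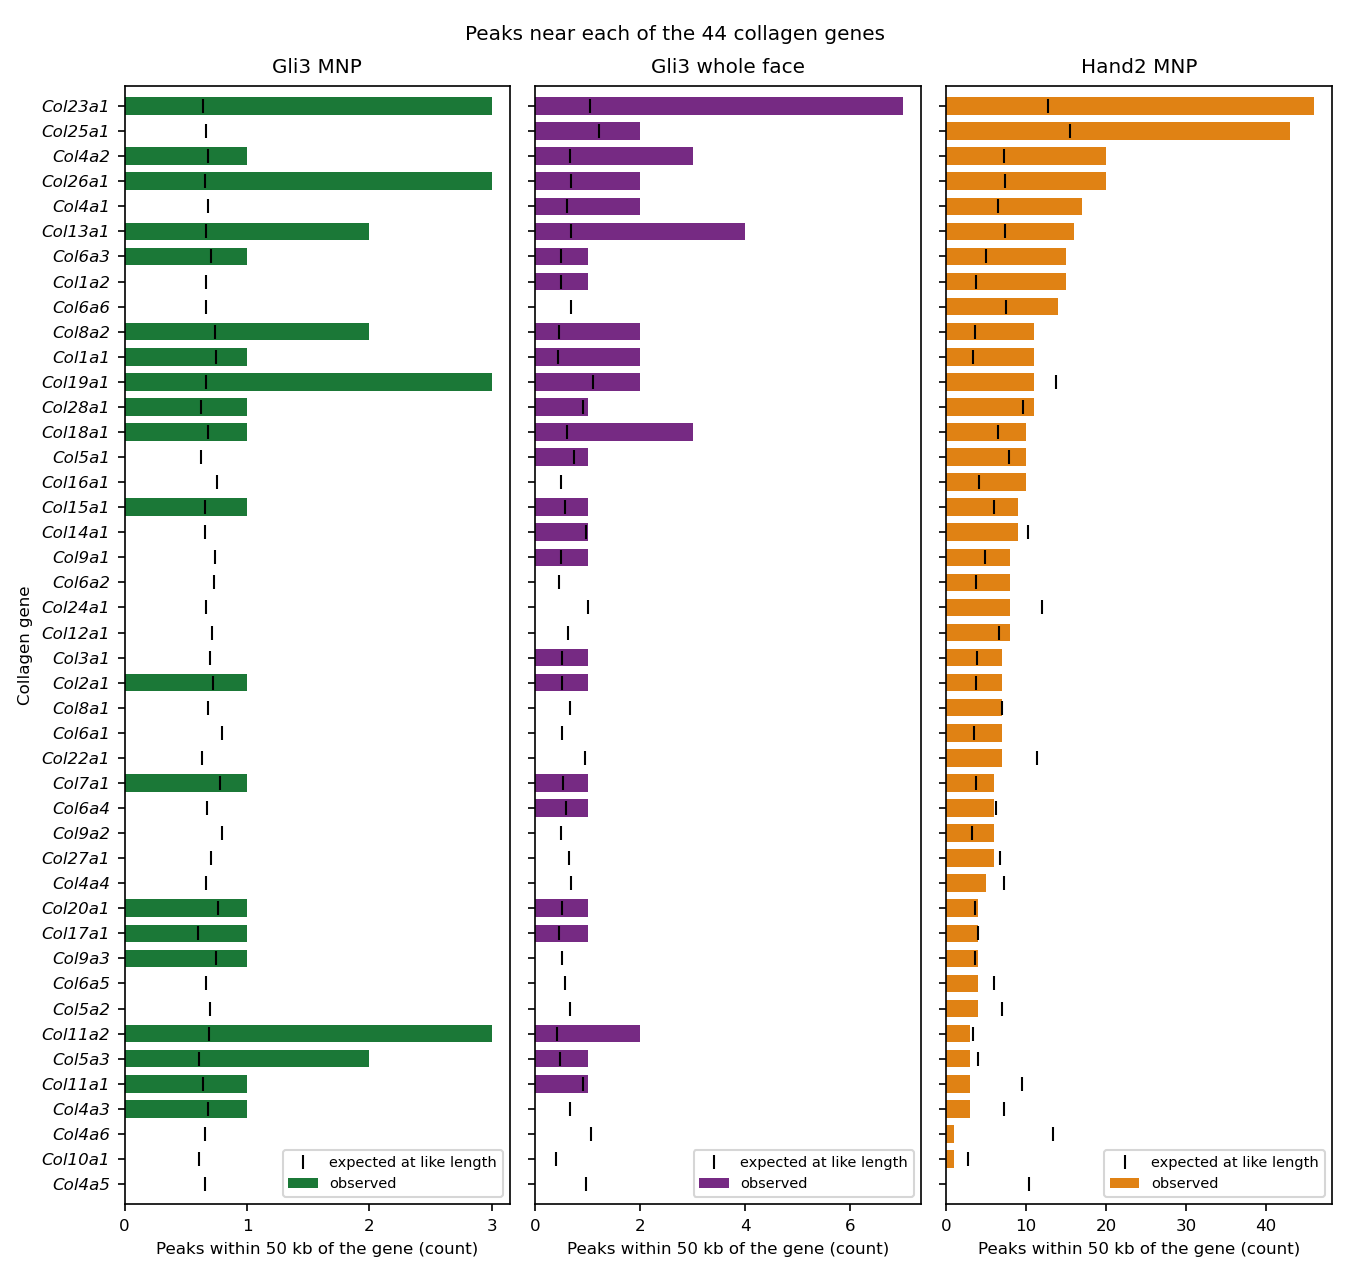
Number of peaks of the 3 lists within 50 kb of each of the 44 collagen genes (bars) and the number expected from 500 genes of like length (black ticks), with genes ordered by Hand2 count. *Col23a1* and *Col25a1* stand at the top with 46 and 43 Hand2 peaks, and *Col4a5* at the bottom has no peak of any list.

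Both Gli3 lists had a peak at 18 collagen genes (40.9%, interval 27.7 to 55.6), compared to 12.41 expected at like length and to 23.4% of the other genes, and at 17 of these (all but *Col28a1*) a peak of one list overlapped a peak of the other by at least 1 bp. The MNP list alone had a peak at *Col4a3* and *Col9a3*, compared to 8.34 genes expected and to 19.9% of the other genes. Both peaks were promoter peaks of a neighbor, 223 bp from the TSS of *Mff* and 510 bp from that of *Ogfr*. The whole face list alone had a peak at 8 genes, compared to 6.03 expected and to 9.23% of the other genes, namely *Col14a1*, *Col1a2*, *Col25a1*, *Col3a1*, *Col4a1*, *Col5a1*, *Col6a4* and *Col9a1*. Of the 31 MNP peaks near collagen genes, 19 touched a whole face peak (61.3%, interval 43.8 to 76.3), compared to 39.1% of the rest of the MNP list. No Gli3 peak lay in the windows of 16 genes, compared to 17.21 expected and to 47.5% of the other genes, namely *Col10a1*, *Col12a1*, *Col16a1*, *Col22a1*, *Col24a1*, *Col27a1*, *Col4a4*, *Col4a5*, *Col4a6*, *Col5a2*, *Col6a1*, *Col6a2*, *Col6a5*, *Col6a6*, *Col8a1* and *Col9a2*, and 15 of these had at least 1 Hand2 peak.

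The lists differed in where their peaks lay. A promoter was taken as 1 kb on each side of a transcription start site (TSS), the annotated start of a protein-coding gene. It held the midpoint of 17 of the 31 MNP Gli3 peaks (54.8%), near the 56.5% of the rest of that list. Of these 17, 13 lay at the TSS of a neighboring gene, such as *Tgfbr1*, the TGF-β receptor gene downstream of *Col15a1*, *Ring1* next to *Col11a2*, and *Sfr1* next to *Col17a1*. The nearest TSS was that of a collagen gene for 13 of the 31 MNP Gli3 peaks (41.9%), for 26 of the 45 whole face Gli3 peaks (57.8%) and for 258 of the 402 Hand2 peaks (64.2%). For whole face Gli3 and for Hand2, promoter peaks were 17.8% and 8.96% of the peaks near collagen genes, compared to 18.8% and 10.8% of the rest of each list. The windows of collagen genes held a mean of 1.59 other TSSs, compared to 1.85 at like length.

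Inside the collagen genes themselves, the MNP list had 9 Gli3 peaks compared to 12.93 expected (ratio 0.696, interval 0.318 to 1.32), and in the flanks it had 22 compared to 17.27 (ratio 1.27, interval 0.799 to 1.93). The whole face list had 23 peaks inside the genes (ratio 1.57, interval 0.993 to 2.35) and 23 in the flanks (ratio 1.63, interval 1.03 to 2.44). Hand2 had 245 inside (ratio 1.45, interval 1.27 to 1.64) and 183 in the flanks (ratio 1.44, interval 1.24 to 1.67), so its ratio was alike in both places. By their midpoints, 222 of the 245 Hand2 peaks inside collagen genes lay in introns, 6 in coding exons and 17 in noncoding parts of exons.

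**Figure D3:**
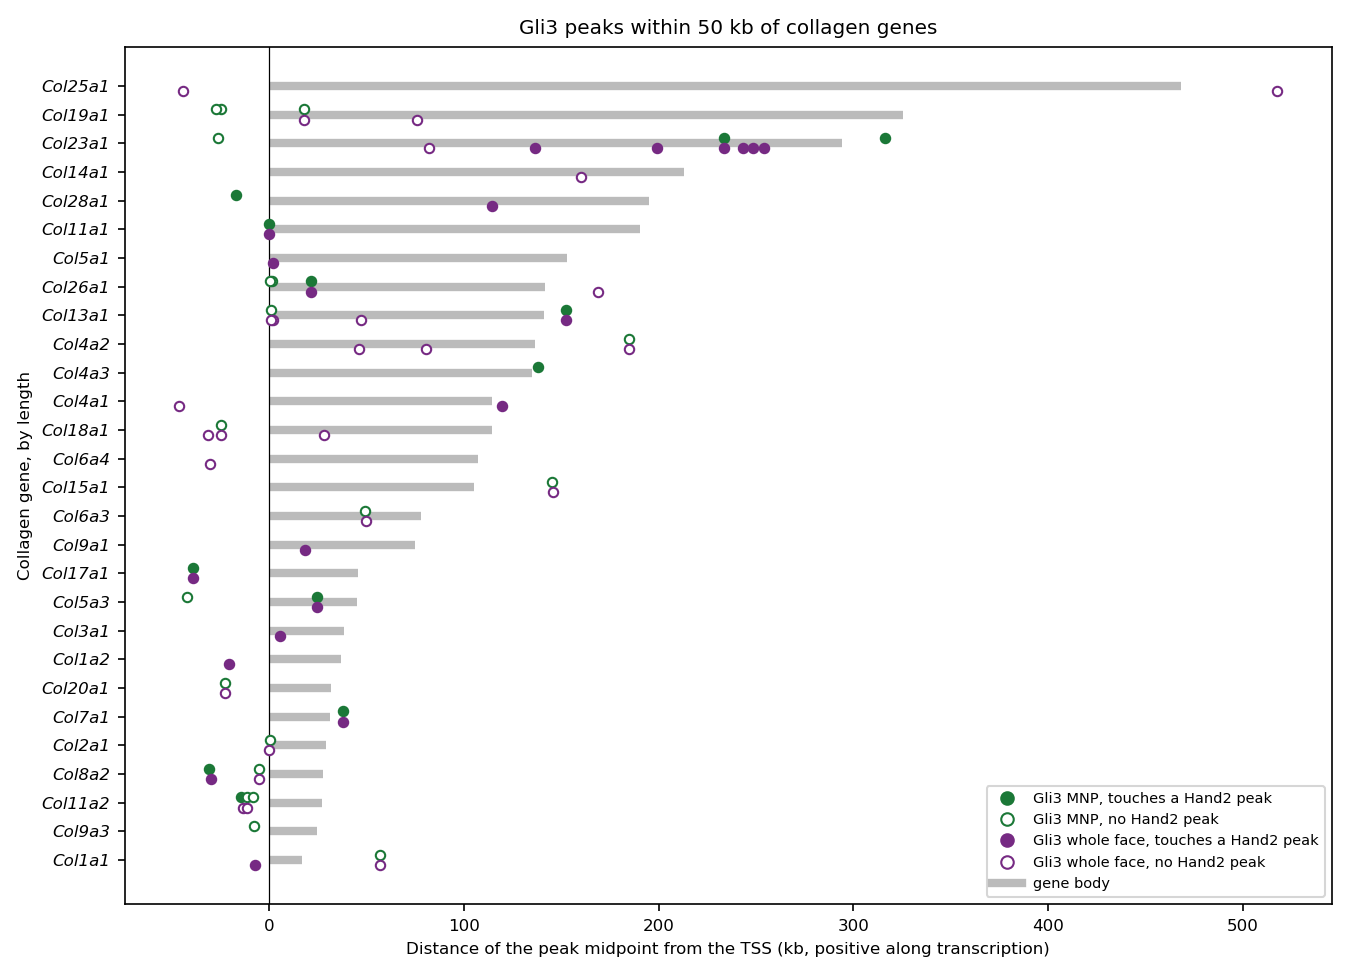
Distance in kb from the TSS to the midpoint of every Gli3 peak within 50 kb of the 28 collagen genes with such a peak, positive in the direction of transcription, with gene bodies as gray bars, MNP peaks in green, whole face peaks in purple and peaks that touch a Hand2 peak filled. Few peaks sit at 0, and the 7 whole face peaks of *Col23a1* all lie inside the gene.

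A Gli3 peak within 1 kb of the gene's own TSS was present at few collagen genes. In the MNP these were *Col11a1*, *Col13a1*, *Col26a1* and *Col2a1*, which is 9.09% of the 44 genes (interval 3.59 to 21.2) compared to 15.4% of the other genes. The whole face list had one at *Col11a1* and *Col2a1*, which is 4.55% (interval 1.26 to 15.1) compared to 5.36%. The whole face peak of *Col13a1*, a transmembrane collagen, fell just outside this limit, with its midpoint 1000 bp from the TSS after rounding. *Col11a1* and *Col2a1* both encode chains of cartilage fibrils, *Col2a1* the main collagen of cartilage and *Col11a1* a minor fibrillar chain found with it. Other collagen genes of cartilage, *Col11a2*, *Col9a1*, *Col9a2*, *Col9a3* and *Col10a1*, had no Gli3 peak within 1 kb of the own TSS in either list. Hand2 peaks lay within 1 kb of the own TSS at 18 genes (40.9%, interval 27.7 to 55.6), compared to 30% of the other genes, a share inside the interval. These were *Col11a1*, *Col11a2*, *Col13a1*, *Col16a1*, *Col18a1*, *Col1a1*, *Col1a2*, *Col23a1*, *Col25a1*, *Col27a1*, *Col3a1*, *Col4a1*, *Col4a2*, *Col5a1*, *Col5a2*, *Col6a2*, *Col6a3* and *Col9a2*. They came from every class but the short-chain networks and the anchoring fibril and other genes.

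At *Col2a1* (chr15:97975602-98004695, minus strand) the MNP peak spanned 1035 bp with its midpoint 267 bp inside the gene, and the whole face peak spanned 227 bp with its midpoint 12 bp before the TSS. Neither touched a Hand2 peak, and the nearest Hand2 midpoint lay 1218 bp from the TSS. That Hand2 peak (chr15:98003186-98003769) lay close beside the MNP Gli3 peak (chr15:98003911-98004945). At *Col11a1* (chr3:114030540-114220718, plus strand) the midpoints lay 66 and 32 bp before the TSS in the MNP and the whole face, and both peaks touched a Hand2 peak whose midpoint was 237 bp from the TSS. None of these 4 peaks held GACCACCC or GACCTCCC, and both *Col11a1* peaks held 1 copy of CAGATG, a form of the E-box bound by helix-loop-helix factors. The 150 bases before both starts are shown because the Gli3 peaks of both tissues cover all of them, except at *Col2a1* in the whole face, where the peak covers 125. GGGCGG, the GC box, is in capitals on either strand. It was picked after the sequences were read.

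Col2a1, before the TSS (mm10, chr15:98004696-98004845, minus strand): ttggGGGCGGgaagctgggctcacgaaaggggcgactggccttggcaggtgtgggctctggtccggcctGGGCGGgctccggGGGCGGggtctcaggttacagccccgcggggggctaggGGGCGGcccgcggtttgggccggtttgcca
Col11a1, before the TSS (mm10, chr3:114030390-114030539, plus strand): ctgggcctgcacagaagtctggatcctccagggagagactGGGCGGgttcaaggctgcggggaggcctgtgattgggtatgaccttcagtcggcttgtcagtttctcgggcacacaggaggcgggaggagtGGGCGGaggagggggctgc

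The stretch before *Col2a1* held 4 copies of GGGCGG, of which 3 lay in the whole face peak, and that before *Col11a1* held 2. At least 1 copy was present in the 150 bases before the TSS of 18 of 44 collagen genes (40.9%) and of 35.0% of all protein-coding genes.

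Among the fibrillar collagens, there were 77 Hand2 pairs compared to 64.84 (ratio 1.19, interval 0.937 to 1.48), 10 whole face Gli3 pairs compared to 6.72 (ratio 1.49, interval 0.713 to 2.74), and 8 MNP Gli3 pairs compared to 7.47 (ratio 1.07, interval 0.462 to 2.11). All 3 intervals included 1. The 2 genes of type I collagen, the main protein of bone and dermis, had the highest Hand2 ratios among them. *Col1a2* had 15 Hand2 peaks compared to 3.74 expected, and 0.8% of genes of like length had as many. Of these, 1 had its midpoint 25 bp from the TSS, 5 lay upstream and 7 lay beyond the end of the gene. *Col1a1* had 11 Hand2 peaks compared to 3.28 expected, 7 of them upstream. The whole face Gli3 peak 20392 bp upstream of *Col1a2* and that 7166 bp upstream of *Col1a1* both touched a Hand2 peak, and neither was in the MNP Gli3 list. *Col3a1* and *Col5a1*, which encode chains that assemble with type I collagen, each had a whole face Gli3 peak that touched a Hand2 peak, with midpoints 5364 and 2202 bp inside the gene. *Col2a1* and *Col3a1* had 7 Hand2 peaks each compared to 3.71 and 3.83 expected, and *Col5a1* had 10 compared to 7.87. *Col5a2*, *Col24a1* and *Col27a1* had 4, 8 and 6 Hand2 peaks, each below the 6.96, 12.03 and 6.74 expected, and no Gli3 peak. *Col5a3* held a Gli3 peak of both tissues with a GACCTCCC motif in an intron, 24482 bp from its TSS in the MNP, and this peak touched a Hand2 peak. *Col11a1* had only 3 Hand2 peaks compared to 9.41 expected. *Col11a2* lies among the genes of the major histocompatibility complex, and its 3 MNP Gli3 peaks were all at the starts of neighbors, *Ring1*, *H2-Ke6* and *Slc39a7*.

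The transmembrane collagens had the highest ratios for Hand2 and for whole face Gli3. The 4 genes together had 109 Hand2 pairs compared to 39.68 expected (ratio 2.75, interval 2.26 to 3.31), 14 whole face Gli3 pairs compared to 3.37 (ratio 4.15, interval 2.27 to 6.97) and 6 MNP Gli3 pairs compared to 2.58 (ratio 2.33, interval 0.855 to 5.07). *Col23a1* (chr11:51289920-51583918) had 46 Hand2 peaks compared to 12.79 expected, 41 of them inside the gene, and 0.4% of genes of like length had as many. Its 7 whole face Gli3 peaks, compared to 1.04 expected, all lay in introns from 82078 to 253872 bp after the TSS, and 6 of them touched a Hand2 peak. The peak at 233314 bp was also in the MNP Gli3 list. The other 2 MNP Gli3 peaks of *Col23a1* lay at the starts of neighbors on either side. *Col25a1* had 43 Hand2 peaks compared to 15.52 expected, 40 of them inside the gene, and its 2 whole face Gli3 peaks lay near the outer ends of the window, 44114 bp before and 517578 bp after the TSS, with no Hand2 overlap. Together *Col23a1* and *Col25a1* supplied 89 of the 428 Hand2 pairs (20.8%). Without them the ratio over the other collagen genes was 1.27 for Hand2 and 1.39 for whole face Gli3. *Col13a1* had 16 Hand2, 4 whole face Gli3 and 2 MNP Gli3 peaks compared to 7.38, 0.674 and 0.664 expected. The Gli3 peak about 1 kb into the gene (midpoint at 896 bp in the MNP and 1000 bp in the whole face), with the GACCTCCC shown above, was in both Gli3 lists and touched no Hand2 peak, whereas a peak 152212 bp from the TSS, past the end of the gene, was in all 3 lists and held GACCACCC. *Col17a1*, a collagen of the hemidesmosomes of epithelia, had 4 Hand2 peaks compared to 3.99 expected.

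**Figure D4:**
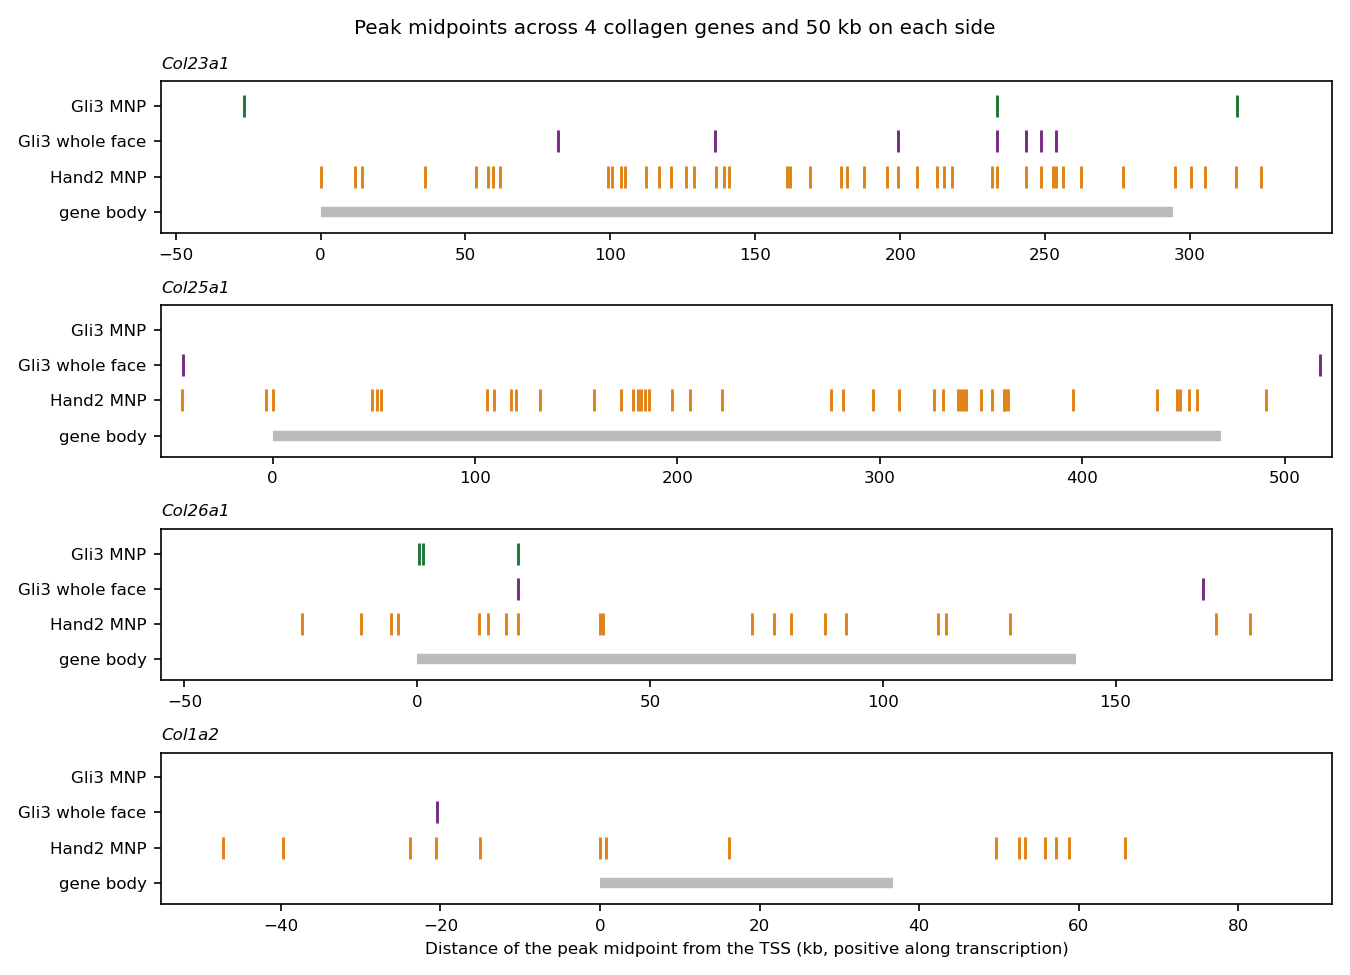
Peak midpoints of the 3 lists (ticks) along *Col23a1*, *Col25a1*, *Col26a1* and *Col1a2*, as distance in kb from the TSS, with the gene body as a gray bar and 50 kb on each side. Hand2 peaks run along the whole of *Col23a1* and *Col25a1*, with 41 and 40 inside the genes, whereas at *Col1a2* 3 of 15 lie inside.

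In the network-forming groups, peaks were unevenly spread. *Col4a1* and *Col4a2*, the paired head-to-head genes of the main basement membrane collagen, had 17 and 20 Hand2 peaks compared to 6.49 and 7.27 expected, with 24 different peaks over the shared locus. A Hand2 peak lay over their common promoter, with its midpoint 233 and 212 bp from the starts. They had 2 and 3 whole face Gli3 peaks, of which 1 is shared. The other 4 genes of the class were below expectation for Hand2. *Col4a3* and *Col4a4* had 3 and 5 Hand2 peaks compared to 7.27 and 7.28 expected. *Col4a6* had 1 and *Col4a5* none compared to 13.35 and 10.31. *Col4a5* was the only collagen gene with no peak of any list. Both lie head-to-head on the X chromosome, where 21 genes of a length like that of *Col4a5* had a mean of 2.90 Hand2 peaks and 23.8% had none, compared to a mean of 10.63 and 2.09% among the 479 such genes elsewhere. For *Col4a6*, the 20 X-linked genes had a mean of 5.40. Among the short-chain collagens, *Col8a2*, found in the membrane beneath corneal endothelium, had 11 Hand2 peaks compared to 3.64 expected and 2 Gli3 peaks in each tissue, of which the one 5136 bp upstream by its MNP midpoint held GACCACCC and touched no Hand2 peak. *Col10a1*, the marker of hypertrophic cartilage, had 1 Hand2 peak and no Gli3 peak, and *Col8a1* had 7 Hand2 peaks compared to 7.01 expected.

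The beaded filament genes had 54 Hand2 pairs compared to 31.61 expected (ratio 1.71, interval 1.28 to 2.23) and 1 MNP Gli3 pair compared to 4.24 (interval of the ratio 0.00598 to 1.32). *Col6a3* led them with 15 Hand2 peaks compared to 4.94, followed by *Col6a6* with 14 compared to 7.42, *Col6a2* with 8 compared to 3.69 and *Col6a1* with 7 compared to 3.46. The windows of *Col6a1* and *Col6a2* overlap, as do those of *Col6a4*, *Col6a5* and *Col6a6*. The only Gli3 peak in both tissues was within *Col6a3*, 49443 bp from its TSS in the MNP, and it held GACCACCC without touching a Hand2 peak.

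The FACIT collagens, which decorate the surface of other fibrils, had 67 Hand2 pairs compared to 61.26 (ratio 1.09, interval 0.848 to 1.39), and 5 Gli3 pairs in each tissue compared to 6.47 in the MNP (ratio 0.772, interval 0.251 to 1.80) and 6.10 in the whole face (ratio 0.820, interval 0.266 to 1.91). *Col16a1* had 10 Hand2 peaks compared to 4.10 expected, and the cartilage genes *Col9a1*, *Col9a2* and *Col9a3* had 8, 6 and 4 compared to 4.87, 3.27 and 3.58. *Col12a1*, *Col14a1* and *Col22a1* had 8, 9 and 7 compared to 6.59, 10.25 and 11.31. The whole face Gli3 peak of *Col9a1*, 18612 bp inside the gene, touched a Hand2 peak, and that of *Col14a1*, at 160158 bp, held both GACCACCC and CAGATG but touched none. *Col20a1* had a Gli3 peak of both tissues 22496 bp upstream by its MNP midpoint. *Col19a1* passed the 95th percentile with 3 MNP Gli3 peaks compared to 0.666 expected. Of these, the peak 17714 bp inside the gene was also in the whole face list and held the GACCTCCC shown above. The other 2, at chr1:24611551-24613054 and chr1:24613165-24616174 upstream of the gene, were wide (1504 and 3010 bp) and were in neither of the other lists. Of all stretches of 31 bases in these 2 peaks, 98.4% and 100% also occur in the mitochondrial genome. The MNP list held 5 nuclear peaks in which at least 50% of the stretches did so, these 2 included, and 3 peaks on the mitochondrial chromosome itself, and the other lists held none. The part of mitochondrial reads in these peaks was not tested. Without such peaks *Col19a1* had 1 MNP Gli3 peak and the MNP total was 29 compared to 30.19 expected (ratio 0.961).

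The multiplexins, whose fragments include endostatin, had 19 Hand2 pairs compared to 12.49 (ratio 1.52, interval 0.916 to 2.38) and 4 whole face Gli3 pairs compared to 1.16 (ratio 3.44, interval 0.936 to 8.80). Both intervals included 1. *Col18a1* supplied 3 of the whole face Gli3 pairs, with 1 at 24666 bp upstream that was also in the MNP list and held GACCACCC. The Gli3 peak of *Col15a1* lay at the TSS of *Tgfbr1* in both tissues. The remaining genes were *Col7a1*, of the anchoring fibrils of skin, *Col26a1* and *Col28a1*, which had 37 Hand2 pairs compared to 20.65 (ratio 1.79, interval 1.26 to 2.47). *Col26a1* had 20 Hand2 peaks compared to 7.40 expected and 3 MNP Gli3 peaks compared to 0.658, all 3 inside the gene. Of these, 2 lay in its first 2 kb, with midpoints 317 and 1337 bp from the TSS, and were in neither other list, whereas the third, at 21714 bp, was in all 3 lists. The MNP peaks at 1337 and 21714 bp held CAGATG, and the whole face peak over the latter did not. *Col28a1* had 11 Hand2 peaks compared to 9.55 expected, and its Gli3 peaks differed between tissues, lying at the TSS of *Mios* in the MNP and 114640 bp into the gene in the whole face. *Col7a1* had 6 Hand2 peaks compared to 3.7 expected.

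**Figure D5:**
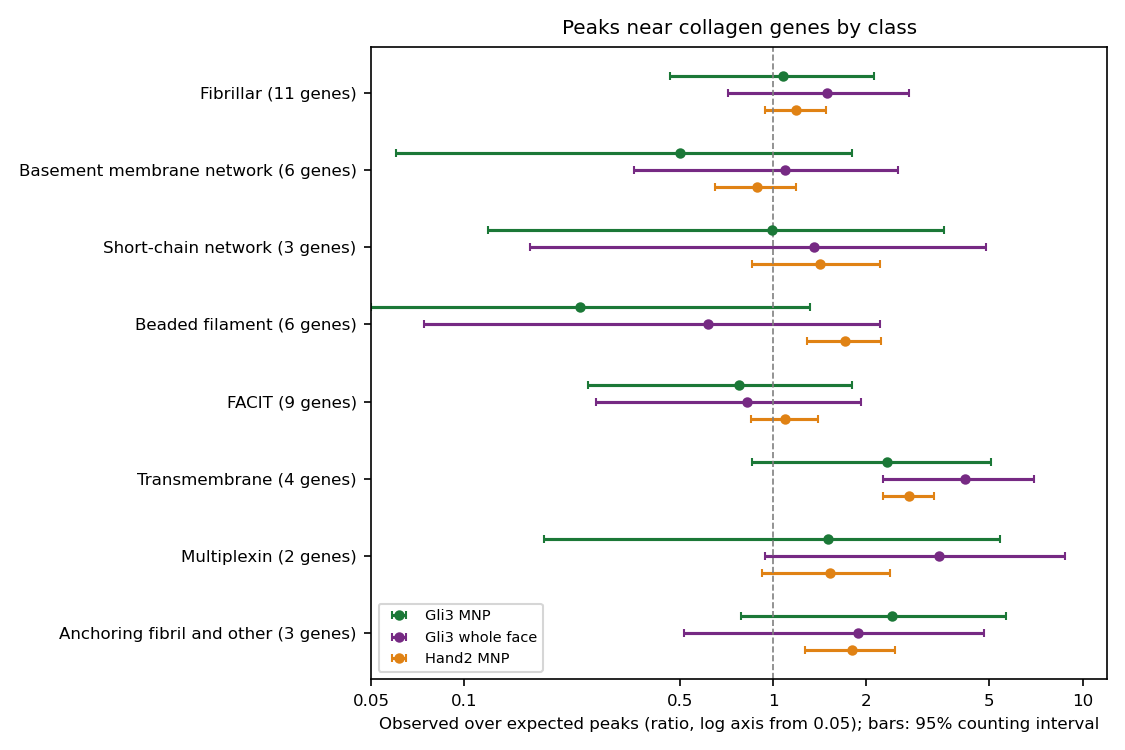
Observed over expected number of peaks for each class of collagen genes and each list, on a log axis that starts at 0.05, with 95% Poisson intervals as bars (the lower bar of MNP Gli3 in beaded filament genes runs past the axis). Transmembrane collagens stand farthest to the right for whole face Gli3 (4.15) and Hand2 (2.75).

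Gli3 peaks near collagen genes were then split by whether they touched a Hand2 peak. In the MNP, 12 of the 31 Gli3 peaks near collagen genes touched a Hand2 peak (38.7%, interval 23.7 to 56.2), compared to 61.6% of the rest of the list. The size of this gap depended on the overlap rule. With a Hand2 peak covering at least 50% of the Gli3 peak the shares were 32.3% (interval 18.6 to 49.9) and 44.5%. With the Gli3 midpoint inside a Hand2 peak they were 35.5% (interval 21.1 to 53.1) and 45.9%. Both intervals then included the rest of the list. At 1 bp of overlap, peaks of the median width or wider gave 35.3% (interval 17.3 to 58.7) and 70.7%. Without peaks of mitochondrial sequence the shares were 41.4% (interval 25.5 to 59.3) and 61.6%. These 2 intervals did not include the rest of the list. For the whole face, 20 of 45 touched a Hand2 peak by at least 1 bp (44.4%, interval 30.9 to 58.8), compared to 47.6%. MNP Gli3 peaks with Hand2 overlap numbered 12 compared to 18.78 expected at like length (ratio 0.639, interval 0.330 to 1.12), and those without numbered 19 compared to 11.42 (ratio 1.66, interval 1.00 to 2.60). Without the peaks of mitochondrial sequence the latter was 17 (ratio 1.49, interval 0.868 to 2.39). Whole face peaks with Hand2 overlap numbered 20 compared to 13.54 (ratio 1.48, interval 0.902 to 2.28), and those without numbered 26 compared to 15.28 (ratio 1.70, interval 1.11 to 2.49). By gene, an MNP Gli3 peak with Hand2 overlap was near 11 collagen genes (25.0%, with 29.8% of other genes) and one without was near 15 (34.1%, with 22% of other genes), where like length gave 32.8% and 22.4%. Both like-length shares lay inside the Wilson intervals of 14.6 to 39.4 and 21.9 to 48.9. For the whole face list the counts were 15 genes with overlap (34.1%, with 16.7% of other genes) and 17 without (38.6%, with 21.5%). Like length gave 22.6% and 27.2% for these, and both lay inside the Wilson intervals of 21.9 to 48.9 and 25.7 to 53.4. These Hand2 peaks came from the MNP, so the whole face comparison sets 2 tissues against each other.

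With an overlap of at least 1 bp, the MNP share was lower than that of the rest of the list both at promoters and away from them. At promoters of any gene, 8 of 17 touched a Hand2 peak (47.1%, interval 26.2 to 69.0) compared to 63.7%. Elsewhere 4 of 14 did (28.6%, interval 11.7 to 54.7) compared to 58.7%. The first interval included the share of the rest of the list and the second did not.

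A peak of all 3 lists was present at 8 places near collagen genes (25.8% of the 31 MNP peaks, with 24.2% of the rest of that list). These were the TSS of *Col11a1*, introns of *Col23a1*, *Col26a1* and *Col5a3*, the region past the end of *Col13a1*, and the promoters of the neighbors *Sfr1*, *Pfkfb4* and *Map7d1*. The E-box CAGATG was in 200 of the 402 Hand2 peaks near collagen genes (49.8%, interval 44.9 to 54.6) and in 47.1% of the rest of the Hand2 list. In Gli3 peaks near collagen genes it was in 7 of 31 in the MNP (22.6%) and 10 of 45 in the whole face (22.2%), compared to 27.2% and 23.3% of the rest of each list.

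The machinery that makes, secretes, crosslinks and binds collagen was counted in the same way over 48 genes. It had 291 Hand2 pairs compared to 208.9 expected (ratio 1.39, interval 1.24 to 1.56), 25 whole face Gli3 pairs compared to 24.71 (ratio 1.01, interval 0.655 to 1.49) and 25 MNP Gli3 pairs compared to 34.02 (ratio 0.735, interval 0.476 to 1.09). For Hand2 the 18 genes of biosynthesis and folding stood at 1.66 (interval 1.37 to 2) and the 4 fibril-binding proteoglycans at 2.01 (interval 1.31 to 2.94), compared to 1.23, 1.18 and 1.05 for processing and crosslinking, receptors and proteases, whose intervals included 1. A Gli3 peak lay within 1 kb of the own TSS at 6 of the 48 genes. By list these were 5 in the MNP (10.4%, interval 4.53 to 22.2) and 3 in the whole face (6.25%, interval 2.15 to 16.8), and the 15.4% and 5.36% of genes outside the collagens given above lay inside these intervals. *Serpinh1*, the collagen chaperone, had one 797 bp from the TSS in the MNP and 52 bp in the whole face, and 13 Hand2 peaks compared to 2.60 expected. *Itgb1*, the β chain of the collagen-binding integrins, had one at 232 bp in the MNP and 392 bp in the whole face. *Plod3* and *P3h3*, which hydroxylate lysine and proline of the chains, and *Mmp14*, a membrane-bound collagenase, had one in the MNP at 424, 562 and 388 bp, and *P4hb*, a subunit of prolyl 4-hydroxylase, had one in the whole face at 142 bp.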

How the data were processed

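FLAG ChIP-seq reads were mapped by the authors to mm10 with BWA, and peaks shared by both replicates were merged with bedtools. HOMER is also named in the submitters' processing notes, and versions and the peak caller are not given in the sources used here. The deposited files hold peak positions (start and end) and the names of the merged replicate peaks, with no score, so depth is unknown and no test was made. The 6 samples were grouped by label. Gene bounds and the TSS (the annotated start of a gene) came from GENCODE vM21, and sequence from the RefSeq copy of GRCm38.p6. Peaks overlapped if they shared at least 1 bp. Motifs were exact matches. Expectations and intervals were computed with numpy 2.4.6, scipy 1.17.1, statsmodels 0.14.6 and pysam 0.24.0, and the code was tested on simulated counts. The named genes were those with a Gli3 peak, with any peak within 1 kb of the TSS, with the most Hand2 peaks (5 by number and 5 by ratio), with no peak, or with shared windows. *Col8a1*, *Col10a1*, *Col12a1*, *Col22a1* and *Col24a1* fall outside this rule and were named after their values were seen, to account for every member. Members and lists were chosen with earlier results of these data known. The peaks of mitochondrial sequence, *Col23a1* and *Col25a1*, and promoter peaks alone were set apart as alternatives after seeing the data.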

Additional observations from a re-analysis of the deposited data

How the results depend on the processing

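Of 72 alternative values, 63 stayed within the interval or range of the reported value and 9 did not. For counts of genes this range was a set fold around the reported count. Some of the 63 could not differ, so the tally overstates stability. Counts of genes with a peak do not depend on bins of gene length. Whole face Gli3 and Hand2 had no peaks of mitochondrial sequence to remove. For the ratio of observed to expected peaks, windows of 10 and 100 kb, 20 bins of gene length, regression on window length or on window length and number of TSSs, removal of promoter peaks, wide peaks, peaks nearest to the own TSS and merged windows gave values from 1.46 to 1.73 for whole face Gli3 and from 0.865 to 1.22 for MNP Gli3, and leaving out *Col23a1* and *Col25a1* gave 1.39 and 0.969. For Hand2 the ratios were from 1.32 to 1.53, and the ratio was 1.27 without *Col23a1* and *Col25a1*. The number of genes with an MNP Gli3 peak went from 20 to 13 with a window of 10 kb, to 10 without promoter peaks, to 13 with peaks of the median width or wider, and to 9 with peaks nearest to the own TSS. The number with a whole face Gli3 peak went from 26 to 15 with wide peaks. Expected numbers fell along with these, since fewer peaks or a smaller window were counted. Genes above the 95th percentile numbered 1 and 2 for MNP Gli3 with windows of 10 and 100 kb, and 2 for whole face Gli3 with 10 kb. The share of Gli3 peaks touching Hand2 ranged from 28.6% to 47.1% in the MNP and from 42.2% to 56.5% in the whole face. Under the 2 stricter overlap rules the MNP share of the rest of the list fell from 61.6% to 44.5% and 45.9%, inside the intervals of the collagen share. No paired analysis was possible because the results come from no test. The lists hold 1 merged set per group, so biological replicate error cannot be given, and peak strength cannot be compared.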
